A study of Mus musculus with 8 samples.

Results

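Aminoacyl-tRNA synthetases attach amino acids to their tRNAs, the step that supplies the ribosome with its substrates. The genes described here are 36 nuclear genes for these enzymes, of 55385 genes in the count table and 17445 that passed the expression filter. They were taken by name, as 20 genes whose enzymes charge tRNAs in the cytosol and 16 whose enzymes charge tRNAs in mitochondria, and all 36 passed the filter. Transcript levels were measured by RNA-Seq in mESCs of the R1 line, which derives from male mouse embryos, is labelled wild type and was grown without feeder cells in defined medium with Lif and kinase inhibitors on Poly-L-Ornithine and Laminin. Every culture, the controls included, received lentivirus over 2 days and puromycin for 3 days, so all groups share infection and drug selection. Of the 8 libraries, 3 biological replicates carried shRNA1 and 3 carried shRNA2, which are independent hairpins against *Eftud2*, a GTPase of the U5 snRNP of the spliceosome, and 2 carried nt-shRNA, a hairpin without a target.

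Mammalian cells keep separate enzymes for the cytosol and for mitochondria for most amino acids, all encoded in the nucleus. *Gars* and *Kars* are exceptions, since each makes both the cytosolic and the mitochondrial enzyme. *Eprs* carries the glutamate and the proline activity in 1 protein, and *Farsa* and *Farsb* encode the subunits of a single phenylalanine enzyme. Part of the cytosolic set is held together by scaffold proteins in the multi-synthetase complex. Many cytosolic synthetase genes are known targets of ATF4, a transcription factor that is translated when amino acids are short and that binds C/EBP-ATF response elements.

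Levels are given as CPM, counts scaled by library size and TMM factor, and changes as log2 fold changes from edgeR's quasi-likelihood test with their standard error (SE). A gene was called higher or lower when its Benjamini-Hochberg adjusted p over all 17445 genes was under 0.05. Total counts were between 19569525 and 29871048 per library, at which 3 counts correspond to 0.105 to 0.148 CPM. *Eftud2* itself was at 262 and 256 CPM with nt-shRNA, 232, 229 and 225 CPM with shRNA1, and 198, 202 and 235 CPM with shRNA2. All 6 KD libraries were below both controls, and the log2 fold change was -0.18 with shRNA1 (SE 0.0678, adjusted p = 0.0514) and -0.29 with shRNA2 (SE 0.0678, adjusted p = 0.00122). Summed over 8 markers of pluripotent stem cells, levels were between 6580 and 6970 CPM in every library, but single markers changed in both directions. With shRNA2, *Dppa5a* (log2 fold change -0.96) and *Pou5f1* (-0.29) were called lower and *Sox2* (-0.02) was not called. *Klf4* (1.32), *Nanog* (0.76), *Zfp42* (0.54), *Esrrb* (0.39) and *Tfcp2l1* (0.28) were called higher. Summed markers of other cells were low but differed between groups. The 4 fibroblast genes summed to 4.60 to 4.95 CPM with nt-shRNA, 6.47 to 7.34 CPM with shRNA1 and 6.23 to 7.57 CPM with shRNA2, and the 4 primitive endoderm genes to 19.9 to 20.3, 18.8 to 22.2 and 14.6 to 17.1 CPM. The 3 neural genes summed to 7.60 to 8.51 CPM with nt-shRNA, 7.85 to 9.48 CPM with shRNA1 and 13.3 to 18.8 CPM with shRNA2. That rise was of *Neurod1* alone (log2 fold change 5.71 with shRNA2), while *Pax6* (-0.42) and *Sox1* (-0.21) were not called. *Zscan4c* with *Zscan4d*, which mark cells resembling the 2-cell stage, summed to 4.77 to 5.59, 27.8 to 41.0 and 21.9 to 27.5 CPM. No marker was at 0 in all libraries, and the part of such cells in the results was not tested. In bulk RNA, fewer cells of a type and less RNA per cell cannot be told apart.

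The nt-shRNA replicate 1 library stood apart in RNAs that lack a poly(A) tail, with 77.2 CPM of *Rn7sk*, the 7SK small nuclear RNA, against 13.0 CPM in nt-shRNA replicate 2 and 1.72 to 4.39 CPM in the KD libraries. Calls lost without it are therefore named, and the cytosolic counts and *Lars2* are also given without it. Single genes that kept their call are given with all libraries, although their sizes depend on the controls too. With 1 library left out at a time, the shRNA1 log2 fold change ran from -0.60 to -0.31 for *Aars*, -0.70 to -0.43 for *Sars* and -0.69 to -0.45 for *Yars*.

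Cytosolic synthetase transcripts were mostly lower after *Eftud2* KD. With shRNA1, 12 of the 20 cytosolic genes were called lower, 0 higher, and 8 were not called, against a background of 30.9% of all tested genes called (17.1% lower, 13.8% higher). The median log2 fold change of the 20 genes was -0.31, beside -0.01 over all genes tested. With shRNA2, 14 were called lower, 1 higher, and 5 were not called, against 55.9% of all tested genes called (28.7% lower, 27.2% higher), with a median of -0.30 beside 0.00 over all genes. Of the 16 mitochondrial genes, 4 were lower, 0 higher and 12 not called with shRNA1 (median -0.13), and 5 were lower, 4 higher and 7 not called with shRNA2 (median -0.03). The mitochondrial shares are close to the background and the cytosolic share of lower calls lies above it with both hairpins. The background was higher among the 9852 genes within the range of mean levels of the 36 genes, of which 23.5% were called lower with shRNA1 and 34.6% with shRNA2. Both comparisons use the same nt-shRNA libraries, so the hairpins are not independent of each other in them.

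**Figure D1:**
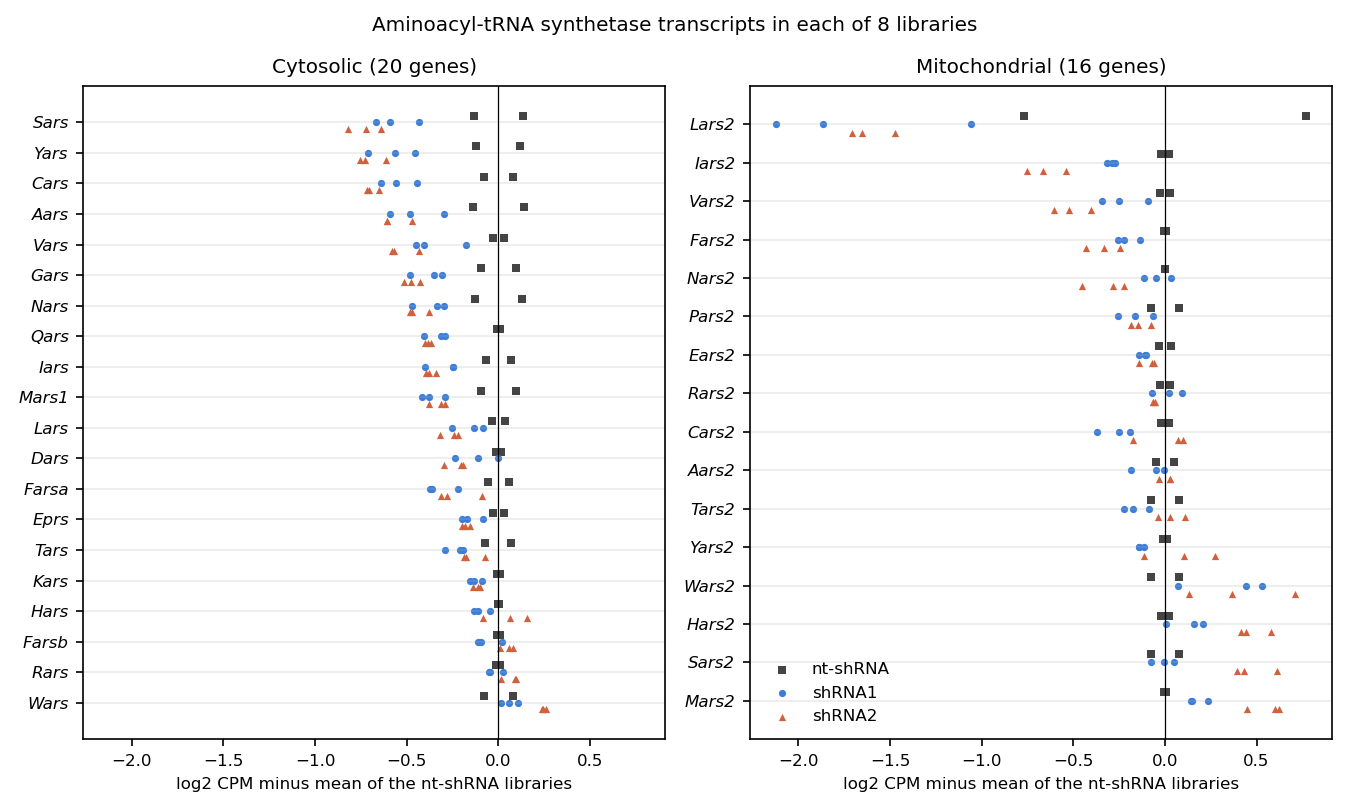
Each point is 1 library, placed by its log2 CPM minus the mean of the nt-shRNA libraries, for the 20 cytosolic genes (left) and the 16 mitochondrial genes (right), ordered by the mean of the shRNA2 libraries. In 16 of the 20 cytosolic rows all 3 shRNA1 libraries lie below both controls, and in the *Lars2* row the control libraries themselves lie far apart.

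Per length, cytosolic synthetase transcripts were the more abundant ones, and *Lars2* was the exception. In nt-shRNA libraries the cytosolic genes ranged from 25.3 CPM per kilobase of annotated exon (*Wars*) to 188 (*Gars*), with a median of 51.3, and the mitochondrial genes from 1.11 (*Wars2*) to 111 (*Lars2*), with a median of 7.50. *Gars*, at 188 ± 17.3 CPM per kilobase (SD, n = 2), was followed by *Lars2* (111 ± 76.3), *Kars* (108 ± 0.890), *Nars* (107 ± 13.3) and *Aars* (98.5 ± 13.6), of which the last 4 did not differ beyond their spread. At the border between the classes, *Wars* (25.3 ± 1.98) and *Iars2* (22.7 ± 0.531) also lay within about their spread of each other. The exon length counts every annotated exon, used or not, so the order between genes is approximate.

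The promoters of the cytosolic genes were read for the letters of the ATF4 element. RefSeq promoter windows on GRCm38.p6, from 250 bases before to 50 bases after the start, were matched for 13 of the 20 cytosolic and 14 of the 16 mitochondrial genes. The core TGATGNAA of the C/EBP-ATF response element was searched on both strands and was present in 5 cytosolic windows and 0 mitochondrial ones, against 3.97% of all 32851 windows. The E-box CACGTG, the letters bound by MYC proteins, was present in 4 cytosolic windows (*Aars*, *Farsb*, *Iars* and *Tars*) and 1 mitochondrial window (*Ears2*), against 7.15% of all windows. The stretches from 150 bases before to 50 bases after the start are shown for the 5 genes with the ATF4 element letters and for *Sars*, the cytosolic gene with the largest fall with shRNA2, which has none. Capitals mark the TGATGNAA letters or their reverse complement, and CACGTG.
Aars, chr8:111033692-111033891, plus strand: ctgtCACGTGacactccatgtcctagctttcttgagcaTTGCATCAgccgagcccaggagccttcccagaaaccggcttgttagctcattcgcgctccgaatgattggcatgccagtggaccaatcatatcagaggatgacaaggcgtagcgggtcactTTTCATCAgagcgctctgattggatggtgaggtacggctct
Gars, chr6:55037851-55038050, plus strand: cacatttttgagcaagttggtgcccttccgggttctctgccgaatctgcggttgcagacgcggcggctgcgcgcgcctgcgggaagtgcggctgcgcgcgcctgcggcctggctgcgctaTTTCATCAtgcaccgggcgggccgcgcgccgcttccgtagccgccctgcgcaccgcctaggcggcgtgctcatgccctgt
Iars, chr13:49681980-49682179, plus strand: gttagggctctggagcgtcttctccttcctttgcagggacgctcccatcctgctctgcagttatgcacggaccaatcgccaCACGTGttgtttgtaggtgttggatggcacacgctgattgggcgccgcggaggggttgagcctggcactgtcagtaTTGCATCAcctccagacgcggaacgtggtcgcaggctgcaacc
Tars, chr15:11399609-11399808, minus strand: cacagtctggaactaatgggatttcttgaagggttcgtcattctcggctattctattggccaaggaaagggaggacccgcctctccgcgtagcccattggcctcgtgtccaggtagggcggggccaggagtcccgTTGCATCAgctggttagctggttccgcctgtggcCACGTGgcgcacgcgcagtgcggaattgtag
Yars, chr4:129189753-129189952, plus strand: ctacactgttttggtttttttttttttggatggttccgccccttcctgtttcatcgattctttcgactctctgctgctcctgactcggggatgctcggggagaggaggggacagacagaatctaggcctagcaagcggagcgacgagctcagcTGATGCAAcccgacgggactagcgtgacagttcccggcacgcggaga
Sars, chr3:108445210-108445409, minus strand: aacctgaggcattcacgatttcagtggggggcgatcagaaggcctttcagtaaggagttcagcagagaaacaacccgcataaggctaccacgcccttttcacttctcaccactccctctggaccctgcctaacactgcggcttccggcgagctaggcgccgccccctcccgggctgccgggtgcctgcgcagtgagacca
*Aars* holds the element letters in the reverse direction 112 bases upstream and again 9 bases downstream of its start, and *Gars*, *Iars* and *Tars* hold them in the reverse direction 30 bases upstream, 7 bases downstream and 15 bases upstream. In *Yars* they run in the direction of the gene, 3 bases downstream. All 5 of these genes were called lower with shRNA1 (median log2 fold change -0.38) and 4 with shRNA2 (median -0.48). Of the 8 other cytosolic genes whose window was read, 4 were lower with shRNA1 (median -0.23) and 6 with shRNA2 (median -0.22), beside 17.1% and 28.7% of all genes. Without nt-shRNA replicate 1, 3 of the 5 and 3 of the 8 were lower with shRNA1, and 4 of each with shRNA2, beside 9.41% and 22.7% of all genes. The 4 largest cytosolic falls with shRNA2 include *Sars*, without the letters, and *Cars*, for which no window was matched. A match of letters is a description of the window and not a binding site.

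The cytosolic transcripts with the smallest adjusted p with shRNA2 were those for the cysteine, serine, tyrosine and valine enzymes. *Cars*, for the cysteine enzyme (chr7:143557230-143600090), was at 252 and 226 CPM with nt-shRNA, 162, 153 and 175 CPM with shRNA1, and 145, 152 and 146 CPM with shRNA2. All KD libraries lay below both controls, at a log2 fold change of -0.55 with shRNA1 (SE 0.0671, adjusted p = 7.0e-06) and -0.69 with shRNA2 (SE 0.0672, adjusted p = 7.2e-08). *Sars*, for the serine enzyme (chr3:108424865-108445209), was at 301 and 251 CPM with nt-shRNA, 182, 173 and 203 CPM with shRNA1, and 167, 176 and 156 CPM with shRNA2. Its levels again did not overlap with the controls, at 67.4% of the control mean with shRNA1 (log2 fold change -0.57, SE 0.0798, adjusted p = 3.2e-05) and 60.2% with shRNA2 (-0.73, SE 0.0799, adjusted p = 3.2e-07). *Yars*, for the tyrosine enzyme (chr4:129189760-129219607), was at 271 and 229 CPM with nt-shRNA, 168, 152 and 182 CPM with shRNA1, and 150, 162 and 147 CPM with shRNA2. It followed *Sars* closely, with a log2 fold change of -0.58 with shRNA1 (SE 0.0776, adjusted p = 2.0e-05) and -0.70 with shRNA2 (SE 0.0778, adjusted p = 3.7e-07). *Vars*, for the valine enzyme (chr17:35000987-35016322), was at 280 and 269 CPM with nt-shRNA, 207, 201 and 242 CPM with shRNA1, and 183, 185 and 203 CPM with shRNA2. The groups were again separate from the controls, at -0.34 with shRNA1 (SE 0.0740, adjusted p = 0.00182) and -0.53 with shRNA2 (SE 0.0740, adjusted p = 7.0e-06).

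*Aars* and *Gars*, whose promoters hold the element letters, are the enzymes for alanine and glycine. *Aars* (chr8:111033144-111057664) was the cytosolic member with the highest CPM, at 1000 and 825 CPM with nt-shRNA, 650, 603 and 740 CPM with shRNA1, and 596, 657 and 597 CPM with shRNA2. The log2 fold changes were -0.46 with shRNA1 (adjusted p = 4.4e-04) and -0.57 with shRNA2 (adjusted p = 1.5e-05), although 15.1% of its exon bases also belong to other genes, *Exosc6* among them, where fragments were not counted. *Gars* (chr6:55038007-55079500), which serves both compartments, was at 623 and 547 CPM with nt-shRNA, 472, 418 and 458 CPM with shRNA1, and 420, 434 and 409 CPM with shRNA2. It fell with both hairpins, by 0.38 (adjusted p = 3.2e-04) and by 0.48 (adjusted p = 8.8e-06) on the log2 scale. *Kars* (chr8:111993443-112011323), the lysine enzyme that also serves both compartments, was at 486 and 481 CPM with nt-shRNA, 434, 442 and 454 CPM with shRNA1, and 447, 440 and 450 CPM with shRNA2. All 6 KD libraries were below both controls, yet the log2 fold changes of -0.13 (SE 0.0564, adjusted p = 0.0975) and -0.12 (SE 0.0564, adjusted p = 0.0833) did not pass the threshold.

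*Nars* (asparagine), *Iars* (isoleucine), *Qars* (glutamine), *Mars1* (methionine) and *Farsa* (a phenylalanine enzyme subunit) were called lower with both hairpins, at log2 fold changes of -0.30 to -0.37 with shRNA1 and -0.22 to -0.45 with shRNA2. In *Qars*, where the controls were closest among these 5, the levels were 271 and 274 CPM with nt-shRNA, 219, 205 and 223 CPM with shRNA1, and 209, 211 and 206 CPM with shRNA2. *Mars1* shares 68 exon bases with *Ddit3*, a gene that fell more, so a small part of its signal is uncertain. *Tars* (threonine) was called with shRNA1 alone, at -0.23 (adjusted p = 0.00902) against -0.15 with shRNA2 (adjusted p = 0.0562). *Lars* (leucine), *Dars* (aspartate) and *Eprs* were called with shRNA2 alone, at -0.26 (adjusted p = 0.00176), -0.23 (adjusted p = 0.00675) and -0.18 (adjusted p = 0.0145). The direct test between the hairpins called none of *Tars*, *Lars*, *Dars* and *Eprs* (adjusted p between 0.143 and 0.718), so a difference between hairpins was not shown for them. In all, 11 cytosolic genes were lower with both hairpins, and 4 (*Farsb*, *Hars*, *Kars* and *Rars*) were called with neither.

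*Wars*, for the tryptophan enzyme (chr12:108860030-108894174), was the only cytosolic gene called higher. It was at 91.9 and 82.3 CPM with nt-shRNA, 90.5, 87.9 and 93.7 CPM with shRNA1, and 103, 104 and 103 CPM with shRNA2. The shRNA2 libraries were above both other groups, with a log2 fold change of 0.25 against nt-shRNA (SE 0.0647, adjusted p = 0.00324), while shRNA1 overlapped the controls (0.06, adjusted p = 0.516). Without nt-shRNA replicate 2 the shRNA2 value was 0.16 and was no longer called (adjusted p = 0.118). *Farsb*, the other phenylalanine enzyme subunit, was called with neither hairpin, at 166 and 164 CPM with nt-shRNA, 167, 154 and 153 CPM with shRNA1, and 174, 172 and 166 CPM with shRNA2 (log2 fold change 0.05, SE 0.0603, adjusted p = 0.514). Its partner subunit *Farsa* was at 152 and 140 CPM with nt-shRNA, 112, 114 and 125 CPM with shRNA1, and 117, 137 and 120 CPM with shRNA2, and the difference between the subunits was not tested.

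**Figure D2:**
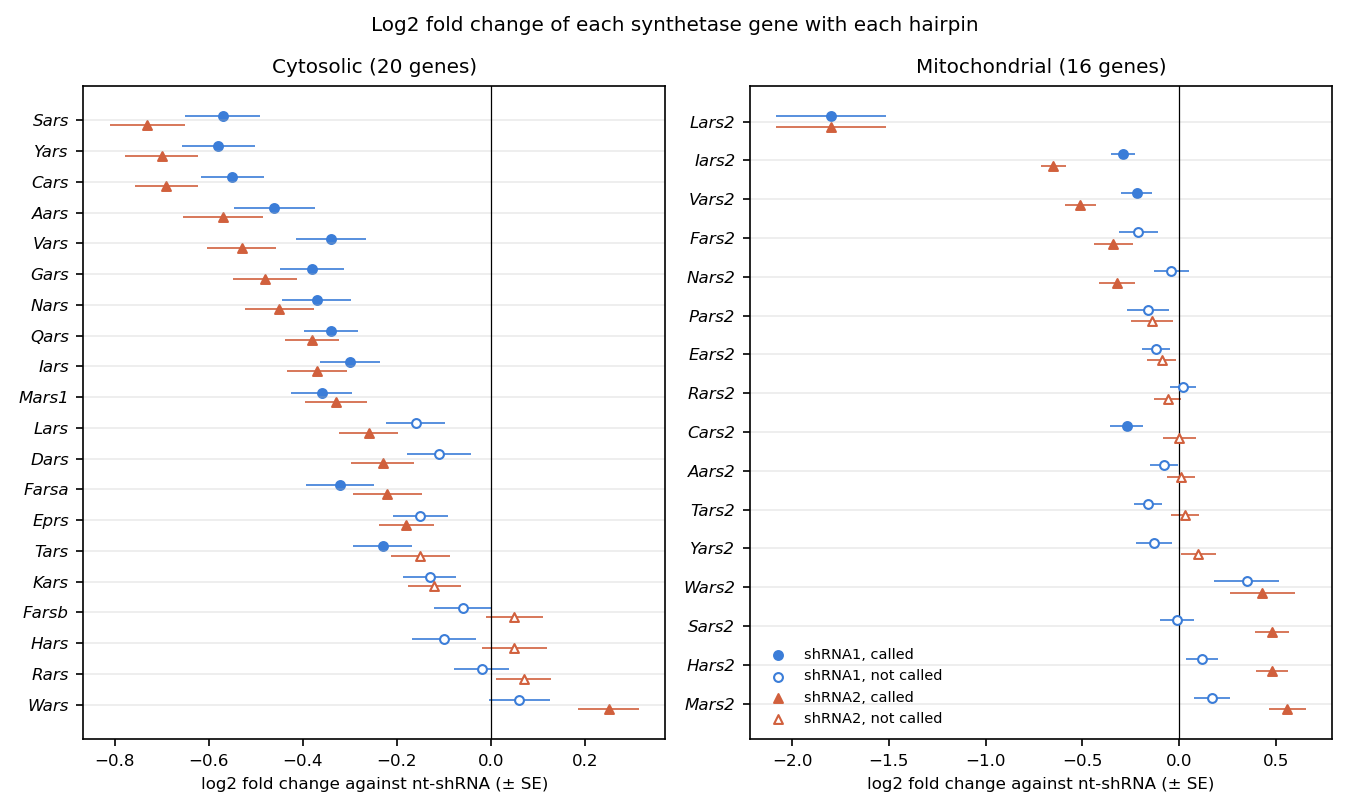
Log2 fold change against nt-shRNA with its SE for each gene with shRNA1 (circles) and shRNA2 (triangles), cytosolic on the left and mitochondrial on the right, on separate axes, with filled symbols for an adjusted p under 0.05. Cytosolic values run from -0.73 (*Sars*, shRNA2) to 0.25 (*Wars*, shRNA2), and *Lars2*, at -1.80 with both hairpins, stands far from the other mitochondrial genes.

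Counted by library, all shRNA1 libraries lay below both controls in 16 cytosolic genes and overlapped them in 4, and all shRNA2 libraries lay below in 16, above in 3 and overlapped in 1. Over all tested genes, 30.2% lay below and 26.6% above with shRNA1, and 36% below and 35.4% above with shRNA2. Summed over the 20 cytosolic genes, the level was 6710 and 6090 CPM with nt-shRNA, 5270, 4920 and 5390 CPM with shRNA1, and 4960, 5160 and 4980 CPM with shRNA2, without overlap between KD and control. The calls rest in part on nt-shRNA replicate 1, which was the higher control in 13 of the 15 cytosolic genes that were lower with at least 1 hairpin. Without it, 8 cytosolic genes were lower with shRNA1 and 12 with shRNA2, against 9.41% and 22.7% of all genes tested then, and the medians were -0.23 and -0.24. *Farsa*, *Iars*, *Nars* and *Tars* then lost the shRNA1 call (adjusted p between 0.0569 and 0.197), and *Farsa* and *Eprs* the shRNA2 call (adjusted p = 0.159 and 0.127). The shRNA2 call of *Farsa* and *Eprs* was also lost without shRNA2 replicate 1 (adjusted p = 0.0819 and 0.064), that of *Dars* without nt-shRNA replicate 2 (adjusted p = 0.0509), and the shRNA1 call of *Tars* without shRNA1 replicate 2 (adjusted p = 0.0529). *Aars*, *Cars*, *Gars*, *Mars1*, *Qars*, *Sars*, *Vars* and *Yars* were lower with both hairpins in each of the 15 alternative settings.

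The lower cytosolic genes included enzymes of the multi-synthetase complex and enzymes outside it. Of the complex's 8 enzymes (*Dars*, *Eprs*, *Iars*, *Kars*, *Lars*, *Mars1*, *Qars* and *Rars*), 3 were lower with shRNA1 (median log2 fold change -0.15) and 6 with shRNA2 (median -0.25). Of the 12 others, 9 were lower with shRNA1 (median -0.35), and 8 were lower and 1 higher with shRNA2 (median -0.46), beside 17.1% and 28.7% of all genes lower. Without nt-shRNA replicate 1, 2 of the 8 and 6 of the 12 were lower with shRNA1 (medians -0.12 and -0.27) and 5 and 7 with shRNA2 (medians -0.23 and -0.35), and the groups were not tested against each other. The scaffold proteins of the complex are a list of 3 genes. *Aimp1* was at 108 and 103 CPM with nt-shRNA, 106, 103 and 99.2 CPM with shRNA1, and 113, 119 and 114 CPM with shRNA2, and it was not called (-0.04, adjusted p = 0.652, and 0.13, adjusted p = 0.0711). *Aimp2* was likewise not called, at 0.03 (adjusted p = 0.836) and 0.18 (adjusted p = 0.0598). *Eef1e1*, also known as AIMP3, was at 93.6 and 92.0 CPM with nt-shRNA, 89.8, 87.9 and 82.0 CPM with shRNA1, and 79.9, 76.7 and 78.4 CPM with shRNA2. It was called lower with shRNA2 (-0.24, SE 0.0629, adjusted p = 0.00283), and the direct test between the hairpins did not call it (-0.14, adjusted p = 0.0578).

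The cytosolic synthetases were also set out by whether they are known ATF4 targets, and the groups were not tested against each other. Of the 13 cytosolic genes on that list, 10 were lower with shRNA1 (median log2 fold change -0.36), and 11 were lower and 1 higher (*Wars*) with shRNA2 (median -0.45). Of the 7 others, 2 (*Farsa* and *Qars*) were lower with shRNA1 (median -0.11) and 3 (*Dars*, *Farsa* and *Qars*) with shRNA2 (median -0.12), beside 17.1% and 28.7% of all genes. Without nt-shRNA replicate 1, 7 of the 13 and 1 of the 7 were lower with shRNA1, and 10 of the 13 and 2 of the 7 with shRNA2, beside 9.41% and 22.7% of all genes. The list was drawn up with earlier results of these data known, so its count is no independent evidence.

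Other genes of the ATF4 pathway were lower too. Of 20 such genes, 14 were called lower, 0 higher and 6 not called with shRNA1 (median -0.39), and 14 lower, 1 higher and 5 not called with shRNA2 (median -0.58), against 17.1% and 28.7% of all tested genes called lower. Without nt-shRNA replicate 1, 10 were lower with shRNA1, and 12 were lower and 2 higher with shRNA2, against 9.41% and 22.7% of all genes lower. *Atf4* itself was at 355 and 308 CPM with nt-shRNA, 209, 192 and 230 CPM with shRNA1, and 229, 262 and 210 CPM with shRNA2. Every KD library was below both controls (-0.65, SE 0.0861, adjusted p = 1.6e-05, and -0.50, SE 0.0862, adjusted p = 6.7e-05), although ATF4 is regulated mainly in translation, which the libraries do not measure. *Nupr1*, a stress-induced chromatin protein, fell from 81.6 and 66.0 CPM to 36.4, 29.9 and 43.3 CPM with shRNA1 and to 23.1, 24.4 and 23.4 CPM with shRNA2 (log2 fold changes -1.01, adjusted p = 2.0e-06, and -1.64, adjusted p = 1.1e-09). *Phgdh*, the first enzyme of serine synthesis, fell by 0.37 (adjusted p = 0.00192, and 0.0878 without nt-shRNA replicate 1) and by 0.87 (adjusted p = 4.9e-08). *Slc3a2*, the shared heavy chain of several amino acid transporters, fell by 0.65 (adjusted p = 2.2e-05) and by 0.94 (adjusted p = 5.2e-08). *Sesn2*, which signals leucine shortage to mTORC1 and is also a p53 target, was the gene called higher, with 0.59 under shRNA2 (adjusted p = 2.1e-04).

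**Figure D3:**
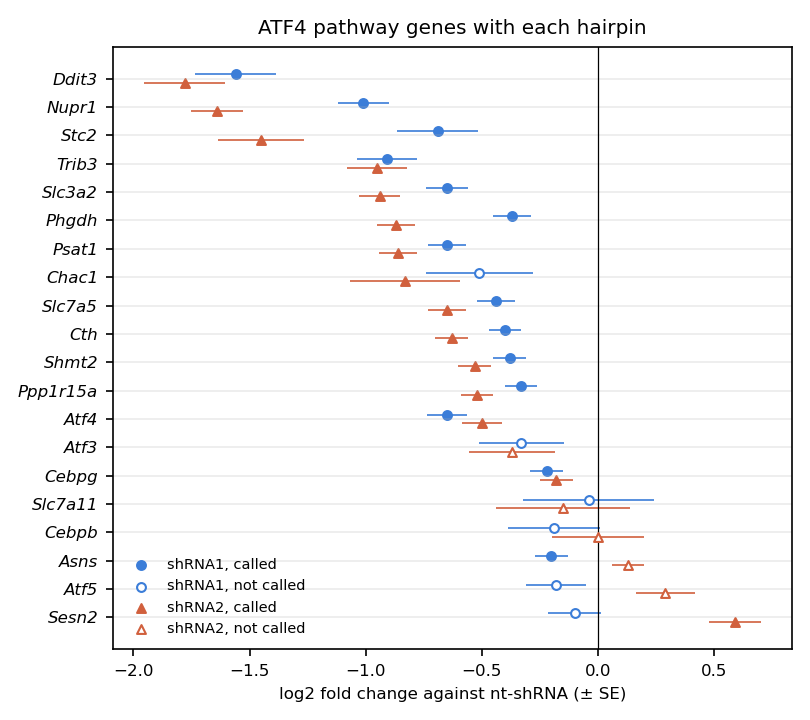
Log2 fold change against nt-shRNA with its SE for the 20 ATF4 pathway genes, with shRNA1 as circles and shRNA2 as triangles and filled symbols for an adjusted p under 0.05. Of the 20 genes, 14 are called lower with each hairpin, and *Sesn2* with shRNA2, at 0.59, is the only one called higher.

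The kinases that phosphorylate eIF2alpha, the step that brings about ATF4 translation, are 4 genes. *Eif2ak1* (heme-regulated) was higher with both hairpins (0.35, adjusted p = 9.3e-04, and 0.53, adjusted p = 4.3e-06). *Eif2ak3*, which senses unfolded proteins in the endoplasmic reticulum, was lower with both (-0.22, adjusted p = 0.0166, and -0.26, adjusted p = 0.00254), though not with shRNA1 once nt-shRNA replicate 1 (adjusted p = 0.164), nt-shRNA replicate 2 (0.0542) or shRNA1 replicate 1 (0.0516) was left out. *Eif2ak4*, which senses uncharged tRNA, was called lower with shRNA2 (-0.37, adjusted p = 2.7e-04) and not with shRNA1 (-0.17, adjusted p = 0.0835). The remaining kinase, *Eif2ak2*, was called higher with both hairpins (0.40, adjusted p = 0.00197, and 0.35, adjusted p = 0.00269), and lost both calls without nt-shRNA replicate 1 (adjusted p = 0.0556 and 0.0643). With all libraries, 2 of the 4 were higher and 1 lower with shRNA1, and 2 higher and 2 lower with shRNA2, where 30.9% and 55.9% of all genes were called. Without nt-shRNA replicate 1, 1 was higher and 0 lower with shRNA1, and 1 higher and 2 lower with shRNA2, where 16.3% and 42.7% were called.

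Of the MYC family, whose proteins bind E-boxes, *Mycn* was the most abundant at 89.2 and 95.6 CPM with nt-shRNA, 91.7, 92.7 and 94.8 CPM with shRNA1, and 103, 105 and 108 CPM with shRNA2. It was called higher with shRNA2 (0.19, adjusted p = 0.0144), and *Max*, the dimer partner, was lower with both hairpins (-0.30, adjusted p = 0.00577, and -0.19, adjusted p = 0.0429). Without nt-shRNA replicate 1 the *Mycn* call was lost (adjusted p = 0.197), and without nt-shRNA replicate 2 both *Max* calls were lost (adjusted p = 0.123 and 0.377). The shRNA2 call of *Max* was also lost without shRNA1 replicate 1 or 2 (adjusted p = 0.0529 and 0.0601) or shRNA2 replicate 1 or 3 (adjusted p = 0.158 and 0.149). *Myc* was near the lowest levels tested, at 0.300 and 0.697 CPM with nt-shRNA, 0.541, 0.888 and 0.428 CPM with shRNA1, and 2.98, 6.27 and 1.56 CPM with shRNA2 (2.83 with shRNA2, SE 0.487, adjusted p = 7.0e-05). The shRNA2 value was 2.16 without shRNA2 replicate 2 and 3.56 without nt-shRNA replicate 2.

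Among the mitochondrial genes, *Lars2*, *Iars2* and *Vars2* were called lower with both hairpins. *Iars2*, for the mitochondrial isoleucine enzyme (chr1:185284726-185329396), was at 198 and 205 CPM with nt-shRNA, 167, 162 and 165 CPM with shRNA1, and 127, 120 and 138 CPM with shRNA2. The 3 groups did not overlap, and the log2 fold change was -0.29 with shRNA1 (SE 0.0635, adjusted p = 0.00164), -0.65 with shRNA2 (SE 0.0637, adjusted p = 8.0e-08) and -0.36 between shRNA2 and shRNA1 (SE 0.0581, adjusted p = 1.4e-04). Of its exon bases, 24.2% also belong to *Rab3gap2* or *2010103J01Rik*, where fragments were not counted. *Vars2*, for the mitochondrial valine enzyme (chr17:35655634-35667592), was at 64.3 and 66.6 CPM with nt-shRNA, 51.6, 54.9 and 61.5 CPM with shRNA1, and 45.6, 43.0 and 49.4 CPM with shRNA2. It was also graded, at -0.22 with shRNA1 (SE 0.0794, adjusted p = 0.0391) and -0.51 with shRNA2 (SE 0.0800, adjusted p = 2.5e-05), with -0.29 between the hairpins (SE 0.0734, adjusted p = 0.00527). The shRNA1 call of *Vars2* was lost in 8 of the 15 alternative settings, without nt-shRNA replicate 1 or 2, shRNA1 replicate 1 or 2 or shRNA2 replicate 1 among them (adjusted p between 0.061 and 0.198), and the shRNA2 call in 0 of them.

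*Mars2*, *Sars2*, *Hars2* and *Wars2* were called higher with shRNA2. *Mars2*, for the mitochondrial methionine enzyme and encoded in 1 exon (chr1:55237177-55248470), was at 16.3 and 16.1 CPM with nt-shRNA, 17.9, 19.1 and 17.9 CPM with shRNA1, and 24.6, 24.9 and 22.1 CPM with shRNA2. The shRNA2 libraries were at 147% of the control mean (log2 fold change 0.56, SE 0.0937, adjusted p = 5.2e-05) and above the shRNA1 libraries (0.38, SE 0.0835, adjusted p = 0.00155), whereas the shRNA1 value of 0.17 was not called (adjusted p = 0.173). *Sars2*, for the mitochondrial serine enzyme (chr7:28741992-28753871), was at 24.5 and 27.2 CPM with nt-shRNA, 24.5, 25.7 and 26.7 CPM with shRNA1, and 33.9, 39.5 and 34.7 CPM with shRNA2. Only the shRNA2 libraries were separate, at 0.48 against nt-shRNA (SE 0.0887, adjusted p = 1.4e-04) and 0.49 against shRNA1 (SE 0.0798, adjusted p = 1.3e-04). *Hars2*, for the mitochondrial histidine enzyme, was at 30.3 and 31.3 CPM with nt-shRNA, 34.3, 35.5 and 30.9 CPM with shRNA1, and 41.0, 46.0 and 41.8 CPM with shRNA2. It was higher with shRNA2 than with nt-shRNA (0.48, SE 0.0825, adjusted p = 6.8e-05) and than with shRNA1 (0.36, SE 0.0737, adjusted p = 0.00105). *Hars2* lies head to head with *Hars*, and 195 exon bases are shared between them on opposite strands, while *Hars* was not called with either hairpin (-0.10, adjusted p = 0.309, and 0.05, adjusted p = 0.566). *Wars2* was the lowest member, at 6.97 and 6.27 CPM with nt-shRNA, 9.02, 9.58 and 6.95 CPM with shRNA1, and 8.56, 10.9 and 7.25 CPM with shRNA2. Its shRNA2 call (0.43, SE 0.168, adjusted p = 0.0375) was lost without either control or without shRNA2 replicate 1 or replicate 2 (adjusted p between 0.0554 and 0.196).

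**Figure D4:**
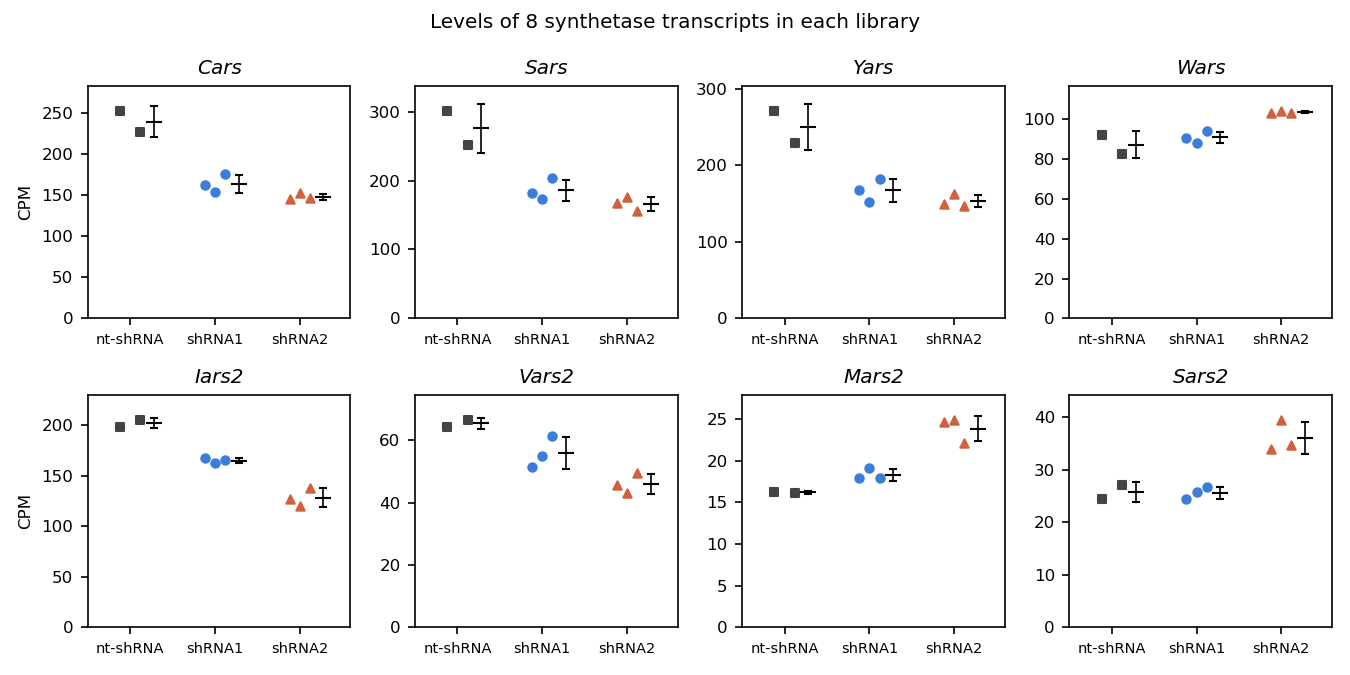
CPM in each library for *Cars*, *Sars*, *Yars* and *Wars* (upper row, cytosolic) and *Iars2*, *Vars2*, *Mars2* and *Sars2* (lower row, mitochondrial), with the mean and SD of each group beside the points and each axis starting at 0. *Cars*, *Sars*, *Yars*, *Iars2* and *Vars2* lie below the controls in every KD library, and *Wars*, *Mars2* and *Sars2* lie above them in every shRNA2 library.

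The mitochondrial genes other than *Iars2*, *Vars2* and *Lars2* were called with 1 hairpin or with neither. *Fars2* (phenylalanine) and *Nars2* (asparagine) were called lower with shRNA2, at -0.34 (adjusted p = 0.00733) and -0.32 (adjusted p = 0.00647), and not with shRNA1, at -0.21 (adjusted p = 0.122) and -0.04 (adjusted p = 0.751). The direct test between the hairpins did not call *Fars2* (-0.13, adjusted p = 0.28) and called *Nars2*, as given with that comparison. *Cars2* (cysteine) was at 43.0 and 41.8 CPM with nt-shRNA, 35.5, 32.7 and 37.1 CPM with shRNA1, and 44.5, 45.3 and 37.5 CPM with shRNA2. It was called lower with shRNA1 (-0.27, SE 0.0856, adjusted p = 0.0224) and had the smallest log2 fold change of its class with shRNA2 (0.00, SE 0.0853, adjusted p = 0.985). The shRNA1 call was lost without either control (adjusted p = 0.144 and 0.0757) and without shRNA1 replicate 1 or replicate 2 (adjusted p = 0.0505 and 0.11). *Aars2*, *Ears2*, *Pars2*, *Rars2*, *Tars2* and *Yars2*, for alanine, glutamate, proline, arginine, threonine and tyrosine, were called with neither hairpin, with log2 fold changes between -0.16 and 0.10.

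*Lars2*, for the mitochondrial leucine enzyme (chr9:123366927-123462666), had the largest log2 fold change of the 36 genes and the least certain one. It was at 1830 and 632 CPM with nt-shRNA, 295, 516 and 247 CPM with shRNA1, and 387, 341 and 329 CPM with shRNA2. The KD libraries lay below both controls, but the controls differed 2.90-fold from each other, and by this difference *Lars2* ranked 16 of the 17445 genes. The log2 fold change was -1.80 with shRNA1 (SE 0.282, adjusted p = 8.9e-05) and -1.80 with shRNA2 (SE 0.282, adjusted p = 2.4e-05), and without nt-shRNA replicate 1 it was -0.84 (adjusted p = 0.0104) and -0.85 (adjusted p = 0.00351). Its level moved from library to library with that of RNAs of other kinds, which were picked after their values were seen. *CT010467.1*, annotated as rRNA, was at 8660 and 2700 CPM with nt-shRNA, 1350, 2330 and 1140 CPM with shRNA1, and 1620, 1400 and 1340 CPM with shRNA2. Across the 8 libraries the ratio of *Lars2* to *CT010467.1* stayed between 0.211 and 0.246, although *Lars2* itself spanned 7.40-fold. *Gm23935*, annotated as a miRNA, gave a ratio between 1.06 and 1.40. *Gm15564*, an annotated antisense transcript, was at 159 and 51.5 CPM with nt-shRNA and 13.8 to 23.0 CPM in the KD libraries, and a run of 52 bases is identical between a *Gm15564* transcript and a *Lars2* transcript of 3894 bases, at bases 3278 to 3329 of the latter. The mitochondrial rRNA *mt-Rnr1* was also higher in nt-shRNA replicate 1 (632 CPM) than in replicate 2 (319 CPM) and in the KD libraries (149 to 186 CPM). The part of rRNA-like fragments in the *Lars2* counts was not tested.

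**Figure D5:**
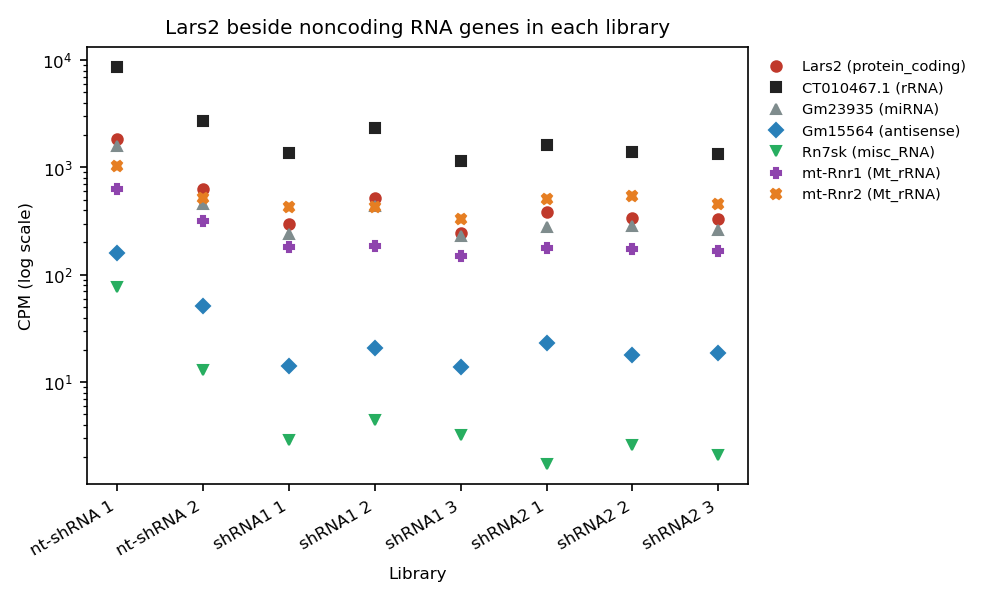
CPM on a log axis in each library for *Lars2* and for 6 genes annotated as noncoding RNA. *Lars2* (circles), *CT010467.1* (squares) and *Gm23935* (grey triangles) keep nearly the same spacing in all 8 libraries, with nt-shRNA replicate 1 the highest for every gene shown.

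Because *Lars2* makes up a large share of the mitochondrial CPM, the class was also summed without it, an alternative added after the data were seen. The 15 other genes summed to 688 and 692 CPM with nt-shRNA, 619, 625 and 625 CPM with shRNA1, and 613, 628 and 618 CPM with shRNA2. The sum was lower in each KD library than in both controls, at 690 ± 2.97 CPM (SD, n = 2) against 623 ± 3.53 (n = 3) and 620 ± 7.31 (n = 3). With shRNA2 this fall was that of *Iars2*, since the 14 genes without *Lars2* and *Iars2*, also summed after the data were seen, came to 490 and 487 CPM with nt-shRNA, 452, 463 and 460 CPM with shRNA1, and 486, 508 and 480 CPM with shRNA2. The shRNA1 libraries stayed below both controls in that sum, and the shRNA2 libraries overlapped with them. Of the 15 genes, 3 were lower and 0 higher with shRNA1, and 4 were lower and 4 higher with shRNA2, with medians of -0.12 and 0.00, shares near those of all genes (17.1% lower with shRNA1, 28.7% lower and 27.2% higher with shRNA2).

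Set side by side by amino acid, the cytosolic and mitochondrial enzymes went together for some amino acids and apart for others. In 16 pairs, with *Eprs* set beside both *Ears2* and *Pars2* and *Farsa* beside *Fars2*, shRNA2 gave lower calls for both enzymes in 5 pairs (phenylalanine, isoleucine, leucine, asparagine and valine) and higher calls for both in 1 (tryptophan). The phenylalanine pair holds for *Farsa* and not for *Farsb*, which was not called (0.05), and the leucine pair rests on *Lars2*, the least certain change. Taken singly, 28.7% of all tested genes were lower and 27.2% higher with shRNA2. The calls were opposite in 2 pairs. For serine, *Sars* was at -0.73 and *Sars2* at 0.48, and for methionine, *Mars1* was at -0.33 and *Mars2* at 0.56. In 5 pairs the cytosolic gene alone was lower, as for alanine (*Aars* -0.57, *Aars2* 0.01) and tyrosine (*Yars* -0.70, *Yars2* 0.10). With shRNA1 both enzymes were lower in 3 pairs, the cytosolic gene alone in 7, and no pair was opposite. Of all tested genes, 17.1% were lower and 13.8% higher with shRNA1. The pair counts depend on single libraries. Without nt-shRNA replicate 1, 9.41% of all genes were lower and 6.91% higher with shRNA1, and 22.7% lower and 20% higher with shRNA2. With shRNA1, pairs with both lower numbered 0 without nt-shRNA replicate 1, 1 without nt-shRNA replicate 2 or shRNA1 replicate 1 or 2, and 2 without shRNA2 replicate 1, and the cytosolic gene alone was lower in 11 without shRNA1 replicate 1. With shRNA2, the tryptophan pair was no longer higher for both without either control or without shRNA2 replicate 1 or 2. Without nt-shRNA replicate 1 or shRNA2 replicate 1, both enzymes were lower in 4 pairs and the cytosolic gene alone in 3. The 2 opposite pairs were found with each library left out in turn. The differences within pairs were not tested, nor was how often unrelated genes would share a call or be called in opposite directions.

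The hairpins were also compared with each other. Between shRNA2 and shRNA1, 6 of the 16 mitochondrial genes were higher with shRNA2, 3 were lower and 7 not called, and of the 20 cytosolic genes 1 was higher (*Wars*, 0.19, adjusted p = 0.0169), 1 lower (*Vars*, -0.19, adjusted p = 0.0354) and 18 not called. Over all tested genes, 35.6% were called (16.9% higher, 18.7% lower), and 43.5% among the genes within the range of mean levels of the 36 genes. The mitochondrial count of 9 of 16 is near the latter share and the cytosolic count of 2 of 20 lies below both. All shRNA2 libraries lay above all shRNA1 libraries in 6 mitochondrial and 2 cytosolic genes and below them in 3 and 1, against 23.6% above and 24.1% below over all genes. The smallest adjusted p were those of *Sars2*, *Iars2* and *Hars2*, described above, and *Mars2*, *Cars2* (0.27, adjusted p = 0.0112), *Tars2* (0.20, adjusted p = 0.0256) and *Yars2* (0.23, adjusted p = 0.0374) were also higher, with *Vars2* and *Nars2* (-0.27, adjusted p = 0.0160) lower. *Hars2*, *Mars2*, *Sars2*, *Iars2* and *Vars2* kept this call in all 15 alternative settings, whereas *Yars2* lost it in 10 of them. Single libraries also decided other calls, since *Vars* lost its call without shRNA1 replicate 3 or shRNA2 replicate 1 or 2 (adjusted p between 0.107 and 0.205), *Wars* and *Cars2* without shRNA1 replicate 2 (adjusted p = 0.077 and 0.0641), *Cars2* also without shRNA2 replicate 1 or 2, *Nars2* without shRNA1 replicate 1 or shRNA2 replicate 2 (adjusted p = 0.0669 and 0.0809), and *Tars2* without shRNA1 replicate 1 or 3 or shRNA2 replicate 2 (adjusted p between 0.0575 and 0.0971).

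Of 4 genes that act beside the mitochondrial synthetases (*Gatb*, *Gatc*, *Qrsl1* and *Mtfmt*), none was called with shRNA1, and with shRNA2 2 were higher and 2 not called. With shRNA2, 55.9% of all genes were called and 27.2% were called higher. *Gatc* and *Qrsl1*, subunits of the amidotransferase that makes mitochondrial glutaminyl-tRNA, were higher with shRNA2 (0.28, adjusted p = 0.0344, and 0.25, adjusted p = 0.0153). Both calls were lost without nt-shRNA replicate 2 (adjusted p = 0.0957 and 0.135) and without shRNA2 replicate 1 (adjusted p = 0.0714 and 0.0753). That of *Gatc* was also lost without nt-shRNA replicate 1 or shRNA2 replicate 2 (adjusted p = 0.165 and 0.0904). *Mtfmt*, which formylates the mitochondrial initiator methionyl-tRNA, was at 20.8 and 22.2 CPM with nt-shRNA, 24.5, 22.7 and 20.4 CPM with shRNA1, and 23.7, 23.2 and 21.3 CPM with shRNA2, and the groups overlapped (0.07, adjusted p = 0.637, and 0.08, adjusted p = 0.484).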

How the data were processed

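RNA-Seq libraries were made from poly(A)-selected RNA (NEBNext Ultra II). The authors checked the reads with FastQC, aligned them to mm10 with STAR without soft clipping, and deposited whole-number counts of fragments per gene from featureCounts 1.6.2 with GENCODE M24, not normalized. Per the file headers, the counting used exons and paired ends and no strand, and left out fragments assigned to several genes or places, so counts of overlapping genes are uncertain. Symbols, exons and locations came from GENCODE M21, and promoters from RefSeq. In R 4.3.3, genes were filtered by filterByExpr (minimum count 10), scaled by TMM (factors 0.935 to 1.04) and fitted with edgeR 4.0.16 over all 8 libraries, with a coefficient per group (biological coefficient of variation 0.0638). On simulated counts, the same steps recovered 190 of 200 genes changed 2-fold, with 5.94% false calls. Those 200 were among 17055 genes, whereas 55.9% of all tested genes were called with shRNA2 in the data. The largest cytosolic log2 fold change was -0.73 (*Sars*, shRNA2), and recovery of changes under 2-fold was not tested. The share of false calls where so many genes are called was not tested either. DESeq2 1.42.0 was an alternative. Figures used matplotlib. Genes described in full were those with the smallest adjusted p in each class, those called against their class, those that changed least, *Gars* and *Kars*, and 3 genes of each further list, and *Aars*, *Qars*, *Farsa*, *Eif2ak2*, *Sesn2* and *Wars2* were added after their values were seen. The members and lists were chosen with earlier results of these data known. Replicate pairs within a group differed by more than sampling noise (chi-square per gene 3.14 to 12.2). The labels call the replicates biological without saying more, and p-values measure the spread between these libraries. Splicing and protein identity were not analysed here, and 1 gene of a further list is not reported here.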

Additional observations from a re-analysis of the deposited data

How the results depend on the processing

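With 2 control libraries, calls depend on each of them, counts do not measure protein or charged tRNA, and genes at a few CPM or less, such as *Myc*, rest on few counts. In all, 15 alternative settings were run beside the mitochondrial list less *Lars2*, which moved no count or median of the class past the spread. DESeq2's test gave 3 lower mitochondrial genes with shRNA1 in place of 4, since *Vars2* lost its call, and 13 lower cytosolic genes in place of 12, and neither it nor DESeq2's size factors moved a class count by over 1.5 times or a class median past its spread. Library size alone moved the median of all genes to 0.11 with shRNA1 and 0.09 with shRNA2, gave 4101 higher and 1713 lower genes with shRNA1, and called 1 cytosolic gene and 3 mitochondrial genes higher and 2 mitochondrial genes lower with shRNA1, 2 cytosolic genes higher with shRNA2, and 3 cytosolic genes lower between shRNA2 and shRNA1. The cytosolic medians were then -0.19, -0.21 and -0.09 for shRNA1, shRNA2 and their difference, and the mitochondrial medians -0.01 with shRNA1 and 0.06 with shRNA2. Under that scaling uncalled genes changed sign with shRNA1, to 0.05 for *Farsb*, 0.02 for *Hars*, 0.09 for *Rars*, 0.04 for *Aars2*, 0.07 for *Nars2*, 0.10 for *Sars2*, 0.07 for *Aimp1*, 0.01 for *Eef1e1*, 0.05 for *Sephs1* and 0.09 for *Tsfm*, with shRNA2 to 0.03 for *Rars2*, and between the hairpins to -0.02 for *Kars*. With no filter the cytosolic median with shRNA2 was -0.32, 3 cytosolic genes were lower between the hairpins, *Aars2* and *Cars2* were both at -0.02 with shRNA2, and *Kars* was at -0.01 between the hairpins. With at least 10 counts in every library the mitochondrial median with shRNA1 was -0.10, the cytosolic median with shRNA2 -0.27, and *Rars*, *Sars2* and *Tsfm* with shRNA1 were at 0.01, 0.02 and 0.00. Only the groups compared gave a mitochondrial median of -0.10 and 0.01 for *Sars2* with shRNA1. Same-numbered libraries deviated with r between -0.03 and 0.07 and differently numbered ones with r between -0.08 and 0.03. Pairing by number was therefore not shown, and so few libraries cannot exclude it. With the replicate block the mitochondrial median with shRNA1 was -0.10, 1 mitochondrial gene (*Wars2*, 0.49, adjusted p = 0.0112) was higher with shRNA1, *Tsfm* was at 0.01 and *Mycn* at 0.00 with shRNA1, *Aars2* was at -0.01 with shRNA2, and *Lars2* was at 0.00 between the hairpins. Leaving out 1 library at a time gave 1248 to 2649 higher and 1700 to 3254 lower genes with shRNA1. For the cytosolic genes the median was then -0.35 to -0.23 with shRNA1, -0.34 to -0.24 with shRNA2 and -0.10 to -0.03 between the hairpins, with 0 to 1 higher with shRNA2, and 0 to 2 higher and 0 to 2 lower between the hairpins. For the mitochondrial genes the median was -0.13 to -0.10 with shRNA1 and 0.02 to 0.14 between the hairpins, with 0 to 1 higher and 2 to 4 lower with shRNA1 and 3 to 6 higher between the hairpins. Sign changes in uncalled genes spanned, with shRNA1, -0.02 to 0.06 for *Rars2*, -0.08 to 0.07 for *Sars2*, -0.02 to 0.07 for *Gatc*, -0.21 to 0.99 for *Myc*, -0.04 to 0.06 for *Mycn*, 0.00 to 0.23 for *Ptrh2* and -0.02 to 0.14 for *Wars*. With shRNA2 they spanned -0.04 to 0.09 for *Cars2*, 0.00 to 0.11 for *Hars*, -0.05 to 0.05 for *Aars2* and -0.04 to 0.11 for *Tars2*, and between the hairpins -0.01 to 0.03 for *Kars* and -0.20 to 0.38 for *Lars2*. The cause of these shifts was not tested.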

Other observations

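Elongation factors bring charged tRNA to the ribosome and move the ribosome along. All 5 cytosolic elongation factor genes were lower with shRNA1 (median log2 fold change -0.32) and 3 with shRNA2 (median -0.21), against 17.1% and 28.7% of all tested genes, and without nt-shRNA replicate 1 the counts were 3 and 2, against 9.41% and 22.7%. *Eef2*, the translocation factor, was at 6330 and 6030 CPM with nt-shRNA, 4250, 4240 and 5040 CPM with shRNA1, and 4080, 4060 and 4080 CPM with shRNA2, below both controls in all 6 KD libraries (-0.45, adjusted p = 9.9e-05, and -0.60, adjusted p = 9.2e-07). *Eef1a1*, which brings charged tRNA to the ribosome, was lower with both hairpins (-0.35, adjusted p = 5.1e-04, and -0.38, adjusted p = 7.1e-05), and so was *Eef1d* (-0.25, adjusted p = 0.00494, and -0.21, adjusted p = 0.00615), which lost both calls without nt-shRNA replicate 1 (adjusted p = 0.0941 and 0.09). Of the 5 mitochondrial elongation factor genes, 2 were lower with shRNA1, and 2 were lower and 2 higher with shRNA2. Of all tested genes, 30.9% were called with shRNA1 and 55.9% with shRNA2 (28.7% lower, 27.2% higher). The list's counts were the same without nt-shRNA replicate 1, where 16.3% and 42.7% of all genes were called (22.7% lower and 20% higher with shRNA2). The lists were not tested against each other. *Guf1* was at 54.9 and 52.3 CPM with nt-shRNA, 35.8, 34.3 and 33.7 CPM with shRNA1, and 32.3, 31.6 and 33.2 CPM with shRNA2 (-0.63, adjusted p = 2.6e-06, and -0.73, adjusted p = 8.2e-08). *Gfm2*, which acts in ribosome recycling, was lower as well (-0.29, adjusted p = 0.00177, and -0.52, adjusted p = 1.5e-06), whereas *Tsfm* was higher with shRNA2 (0.27, adjusted p = 0.00412).

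Among 6 genes that edit or release mischarged or peptidyl tRNA, 1 was lower with shRNA1, and 3 were lower and 3 higher with shRNA2 (2 lower and 1 higher without nt-shRNA replicate 1), where 17.1% of all genes were lower with shRNA1 and 55.9% were called with shRNA2. *Dtd1*, which removes D-amino acids from tRNA, was at 19.5 and 19.8 CPM with nt-shRNA, 14.7, 12.7 and 13.8 CPM with shRNA1, and 11.0, 10.4 and 11.8 CPM with shRNA2 (-0.52, adjusted p = 7.9e-04, and -0.82, adjusted p = 1.9e-06). *Dtd2* was lower with shRNA2 (-0.40, adjusted p = 8.8e-04) and *Ptrh2*, a peptidyl-tRNA hydrolase, higher with shRNA2 (0.62, adjusted p = 3.6e-05). Of 4 genes for selenocysteine charging, *Pstk*, the kinase that acts on seryl-tRNA, was lower with both hairpins (-0.23, adjusted p = 0.0287, and -0.39, adjusted p = 3.4e-04) and *Sephs2*, which makes the selenium donor, higher with both (0.27, adjusted p = 0.00911, and 0.29, adjusted p = 0.00216). Both lost the shRNA1 call without nt-shRNA replicate 1 (adjusted p = 0.137 and 0.146) and without shRNA1 replicate 2 (adjusted p = 0.0728 and 0.0585). *Pstk* also lost it without nt-shRNA replicate 2 or shRNA1 replicate 1 (adjusted p = 0.123 and 0.0736), and *Sephs2* lost the shRNA2 call without nt-shRNA replicate 1 (adjusted p = 0.0568). *Sephs1* was not called with either hairpin (-0.07, adjusted p = 0.494, and 0.13, adjusted p = 0.134), nor was *Sepsecs* (0.16, adjusted p = 0.132, and 0.14, adjusted p = 0.147). Of all tested genes, 30.9% were called with shRNA1 and 55.9% with shRNA2. Without nt-shRNA replicate 1, 0 of these 4 genes were called with shRNA1 and 1 was lower with shRNA2, where 16.3% and 42.7% were called.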
